A study of Homo sapiens with 48 samples.

Results

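The genes described here are 7 core genes of the Notch pathway: the receptor genes NOTCH1, NOTCH2 and NOTCH3, the ligand genes JAG1 and JAG2, and the target genes HES1 and HEY1. They were chosen by gene symbol, and all 7 had 1 row in each of the 2 tables analysed, among 14745 rows with a symbol in GRO-seq and 15535 in RNA-seq. In GRO-seq, nuclei are isolated and their engaged polymerases run on, so that the RNA read is nascent, whereas RNA-seq reads the accumulated mRNA. All libraries came from the human breast epithelial line MCF10A-1, grown in medium with fetal bovine serum, epidermal growth factor, hydrocortisone, insulin and cholera toxin. The cells carried either a control vector or stably expressed SATB1, a nuclear protein that organises chromatin. They were left untreated or received benzo[a]pyrene at 4 µM for 3 hours or for 3 days. This polycyclic hydrocarbon is a ligand of AHR, the aryl hydrocarbon receptor. This gave 6 groups of 4 libraries in each assay.

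Notch receptors are membrane proteins that are cleaved when a Jagged or Delta ligand on a neighbouring cell binds them. The released intracellular domain enters the nucleus, joins the DNA-binding protein RBPJ and a Mastermind coactivator, and switches on repressors of the HES and HEY families. In breast epithelium the pathway is known for its part in the choice between luminal and basal cell fates.

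The tables hold the comparisons of the study's authors, giving for each gene and each of 5 numbered contrasts a linear fold change with its unadjusted p-value, and no level per library. The headers do not name the groups behind a number, so contrasts are called by number, and "higher" and "lower" mean a fold change above and below 1. The 5 contrasts draw on 6 groups and so share libraries: values of a gene across contrasts are set side by side and are not independent of each other. SATB1 was 112-fold in RNA-seq contrast 1 and between 0.836-fold and 1.49-fold in the others in the authors' deposited table, where of these the value in contrast 5 (1.49-fold) was called. SATB1 gave no value in GRO-seq, so this check covers RNA-seq only. CYP1A1, a cytochrome P450 gene induced through AHR, was 195-fold, 36.0-fold, 45.6-fold and 4.79-fold in RNA-seq contrasts 2, 3, 4 and 5 and was called higher in each, whereas in contrast 1 it was 1.46-fold and not called. In GRO-seq it was 1.38-fold, 163-fold, 3.99-fold, 48.0-fold and 2.90-fold in contrasts 1 to 5, and was called in contrasts 2 and 4 only. Comparing the assays assumes that a number means the same comparison in both, which the headers do not state. A gene was called where its p-value, adjusted by the Benjamini-Hochberg method over all genes of the table, was under 0.05. The value after ± is the standard error of the log2 fold change implied by the deposited fold and p-value. Its median over all genes was 0.0569 to 0.0591 in the RNA-seq contrasts and 0.316 to 0.324 in the GRO-seq contrasts.

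Over the 7 genes and 5 contrasts, 19 of 35 RNA-seq values were called (2 higher, 17 lower), and 3 of 35 in GRO-seq (2 higher, 1 lower). Of all genes, 3.87% to 23.2% were called higher and 4.90% to 20.7% lower in an RNA-seq contrast. In a GRO-seq contrast these shares were 0.115% to 9.23% and 0.122% to 8.92%. The promoters of the 3 genes on which the results turn are shown first, since GRO-seq reads transcription that starts there. Each is the RefSeq window from 250 bases before to 50 bases after the annotated start, in GRCh38.p14, 5′ to 3′ on the strand of the gene. Capitals mark TGGGAA, the core recognised by RBPJ, and GCGTG, the core recognised by the AHR complex, searched on both strands, where the complement of the latter reads CACGC. The first window is chr3:194135898-194136197 on the plus strand, the second chr20:10673950-10674249 and the third chr19:15200946-15201245, both on the minus strand.
HES1: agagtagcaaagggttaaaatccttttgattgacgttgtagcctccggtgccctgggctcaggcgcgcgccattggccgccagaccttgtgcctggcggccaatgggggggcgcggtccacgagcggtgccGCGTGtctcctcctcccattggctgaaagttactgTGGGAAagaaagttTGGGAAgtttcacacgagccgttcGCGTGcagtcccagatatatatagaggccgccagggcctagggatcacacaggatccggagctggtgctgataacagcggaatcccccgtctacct
JAG1: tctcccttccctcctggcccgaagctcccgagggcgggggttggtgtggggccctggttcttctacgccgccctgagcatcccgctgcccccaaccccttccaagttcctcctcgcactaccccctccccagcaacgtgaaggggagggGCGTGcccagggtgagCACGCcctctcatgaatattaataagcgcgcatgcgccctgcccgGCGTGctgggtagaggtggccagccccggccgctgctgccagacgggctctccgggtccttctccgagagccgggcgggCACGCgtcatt
NOTCH3: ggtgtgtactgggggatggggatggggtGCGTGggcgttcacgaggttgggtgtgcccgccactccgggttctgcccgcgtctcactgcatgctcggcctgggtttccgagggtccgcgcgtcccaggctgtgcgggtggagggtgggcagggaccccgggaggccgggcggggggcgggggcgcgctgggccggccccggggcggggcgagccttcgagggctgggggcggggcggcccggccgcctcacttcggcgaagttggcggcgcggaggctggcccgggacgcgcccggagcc

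The HES1 window held TGGGAA at 2 places, beginning at positions -84 and -70 from the start, and GCGTG at 2 places, beginning at -119 and -46. The JAG1 window held GCGTG at 4 places and no TGGGAA, and the NOTCH3 window held GCGTG at 1 place and no TGGGAA. The motifs are common: of 35116 promoter windows of the same length, 8439 held TGGGAA and 12832 (36.5%) held GCGTG at least once, while 3.80% held TGGGAA at 2 or more places and 1.63% held GCGTG at 4 or more. Of the other members, NOTCH1 had 2 matches of GCGTG, JAG2 had 1 and NOTCH2 had none, and none of these 3 windows held TGGGAA. These shares take no account of base composition. The HES1, JAG1 and NOTCH3 windows were 59.0%, 68.7% and 78.3% G and C, against a median of 58.7% over all windows. A match is a description of letters, not of binding. RefSeq windows were matched for 6 of the 7 genes. In the same build the receptor genes lie at chr9:136494433-136546048 (NOTCH1), chr1:119911553-120069662 (NOTCH2) and chr19:15159038-15200995 (NOTCH3), and the ligand genes at chr20:10637684-10673999 (JAG1) and chr14:105140995-105168776 (JAG2). HES1 lies at chr3:194136148-194138732 and HEY1 at chr8:79764010-79767767.

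The receptor gene NOTCH3 carried the largest mRNA change of the 7 genes. In the authors' deposited table it was 0.222-fold in RNA-seq contrast 1, that is 4.50-fold lower (log2 -2.17 ± 0.10, adjusted p = 4.55e-18), which placed it at percentile 0.702 of all log2 fold changes. The 95% interval of the fold was 0.193 to 0.256. In GRO-seq contrast 1 the same gene was 0.985-fold with an interval of 0.404 to 2.40 and was not called (adjusted p = 0.994). The fall in mRNA was thus not met by a detectable change of nascent transcription at this precision, and the difference of the assays itself passed the test (GRO-seq minus RNA-seq log2 2.15 ± 0.63, adjusted p = 0.0409). With halved degrees of freedom this call was lost (adjusted p = 0.0851). Of the 82 genes called in both assays in contrast 1, 46.3% also lay in opposite directions.

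In the other RNA-seq contrasts NOTCH3 was 0.968-fold, 0.830-fold, 1.04-fold and 0.795-fold for contrasts 2, 3, 4 and 5 in the authors' deposited table. Of these, the value in contrast 3 was called (log2 -0.27 ± 0.07, adjusted p = 0.00151), and that in contrast 5 missed the threshold (log2 -0.33 ± 0.13, adjusted p = 0.0600). The GRO-seq values lay above 1, at 2.01-fold, 2.44-fold, 2.75-fold and 1.34-fold in contrasts 2, 3, 4 and 5, and none was called (adjusted p = 0.248, 0.120, 0.205 and 0.848). In contrast 3 the assays differed by log2 1.55 ± 0.57 (adjusted p = 0.0498), a value just inside the threshold that left it when each assay was centred on its median gene (adjusted p = 0.0503). The implied standard error of NOTCH3 in RNA-seq was 1.87 times as large in contrasts 4 and 5 as in contrasts 2 and 3 (geometric means), which is percentile 99.5 of 15500 genes, against a median ratio of 1.02.

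In the annotation NOTCH1 overlaps a long non-coding RNA gene and MIR4673, and NOTCH3, JAG1 and JAG2 each overlap a microRNA gene. NOTCH1, also a receptor gene, was lower in RNA-seq by smaller amounts. It was 0.776-fold, 1.00-fold, 0.905-fold, 0.944-fold and 0.872-fold in contrasts 1 to 5 in the authors' deposited table, and was called in contrast 1 (log2 -0.37 ± 0.04, adjusted p = 6.85e-09), contrast 3 (log2 -0.14 ± 0.04, adjusted p = 0.00446) and contrast 5 (log2 -0.20 ± 0.04, adjusted p = 8.05e-04). Its GRO-seq values were 0.892-fold, 1.34-fold, 1.89-fold, 1.51-fold and 1.34-fold, with none called. The largest of them, in contrast 3, had an interval of 0.995 to 3.61, and there the assays differed by log2 1.06 ± 0.45 without passing the test (adjusted p = 0.0930).

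NOTCH2, the third receptor gene, moved least. Its RNA-seq values ran from 0.996-fold to 1.06-fold in the authors' deposited table, and only that of contrast 3 was called (log2 0.09 ± 0.03, adjusted p = 0.0160). Its GRO-seq values ran from 0.836-fold to 1.20-fold with none called. It was also among the more precisely measured genes, with a median implied standard error at percentile 9.07 of the RNA-seq values and 13.1 of the GRO-seq values. RefSeq holds 4 NOTCH2NL genes, partial copies of NOTCH2 with near-identical sequence that had no row of their own in either table, so reads from them may be counted for NOTCH2 or lost.

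The ligand genes were lower in mRNA. JAG1, which encodes Jagged1, was 0.940-fold, 0.721-fold, 0.913-fold, 0.776-fold and 0.936-fold in RNA-seq contrasts 1 to 5 in the authors' deposited table, and each value was called. The larger changes were those of contrast 2 (log2 -0.47 ± 0.03, adjusted p = 1.14e-12, percentile 5.56 of all genes) and contrast 4 (log2 -0.37 ± 0.03, adjusted p = 1.35e-09, percentile 7.04). Those of contrasts 1, 3 and 5 were smaller, with adjusted p between 0.00115 and 0.0314. JAG2, which encodes Jagged2, was 0.873-fold, 0.813-fold, 0.935-fold, 0.812-fold and 0.957-fold, and was called lower in contrast 1 (log2 -0.20 ± 0.04, adjusted p = 2.56e-04), contrast 2 (log2 -0.30 ± 0.04, adjusted p = 3.54e-06) and contrast 4 (log2 -0.30 ± 0.04, adjusted p = 1.75e-05). Both ligand genes thus had their lowest mRNA values in contrasts 2 and 4, as the plot of RNA-seq fold changes shows.

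**Figure D1:**
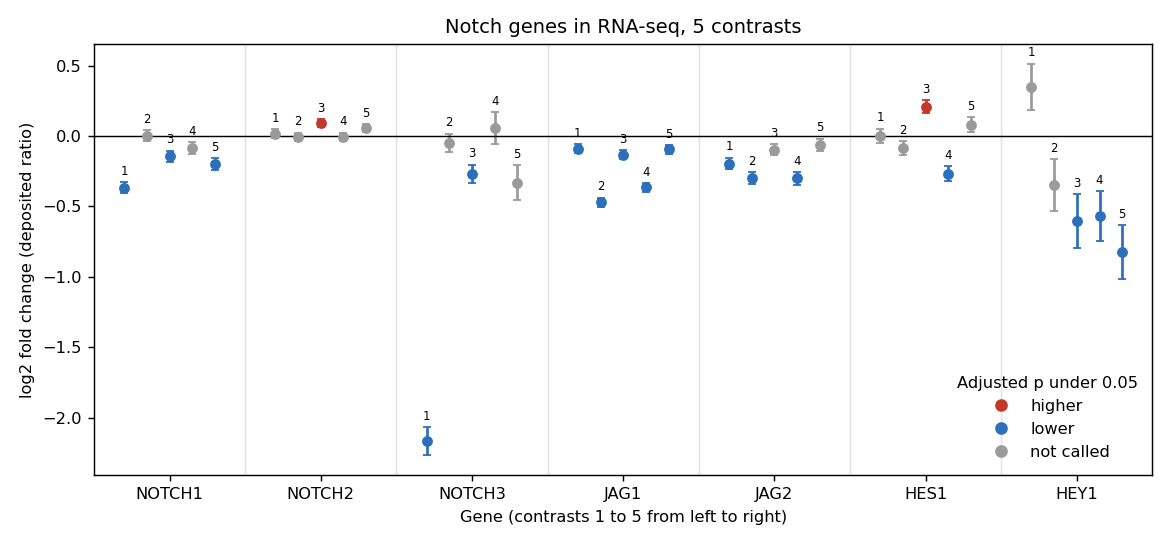
RNA-seq log2 fold change (vertical axis) of each of the 7 Notch genes in contrasts 1 to 5, numbered above the points; bars are the implied standard error and colour gives the call at an adjusted p under 0.05. NOTCH3 in contrast 1 lies at -2.17, apart from all other points, which lie between -0.83 and 0.35.

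For JAG1 the difference between contrasts passed a test that takes the largest standard error any covariance of the contrasts allows. Its RNA-seq log2 fold change was 0.34 ± 0.06 higher in contrast 3 than in contrast 2 (adjusted p = 6.61e-04), and 0.27 ± 0.07 higher in contrast 5 than in contrast 4 (adjusted p = 0.0155). By this test 5.22% of 15500 genes were called in either direction between contrasts 2 and 3, and 2.34% between contrasts 4 and 5. JAG2 had differences of 0.20 ± 0.08 and 0.24 ± 0.09 in the same order (adjusted p = 0.197 and 0.206), and HES1 of 0.30 ± 0.10 and 0.35 ± 0.10 (adjusted p = 0.0801 and 0.0707). With the contrasts taken as independent, JAG2 (adjusted p = 0.0161 and 0.0111) and HES1 (adjusted p = 0.00285 and 0.00144) were called as well, where 15.2% and 9.71% of all genes were. NOTCH1, NOTCH2, NOTCH3 and HEY1 were called by neither version.

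Nascent transcription of JAG1 was 0.442-fold in contrast 2 in the authors' deposited table (log2 -1.18 ± 0.41, adjusted p = 0.0496), a call close to the threshold. In the other GRO-seq contrasts it was 1.77-fold, 1.67-fold, 0.607-fold and 1.14-fold for contrasts 1, 3, 4 and 5, with adjusted p between 0.172 and 0.879. The 2 contrasts with a GRO-seq value below 1, contrasts 2 and 4, were those with its lowest mRNA values. No difference of JAG1 between the assays passed the test (adjusted p between 0.0901 and 0.791). JAG2 in GRO-seq ran from 0.775-fold to 1.20-fold with none called. Between contrasts, GRO-seq gave no call for any gene by the test with the largest standard error, 0% of 14743 for contrasts 2 and 3 and for contrasts 4 and 5. At an unadjusted threshold of 0.05 there were 169 and 223 genes, a smaller share than that threshold itself would pass with no differences. This test could thus hardly call a gene in GRO-seq, and its lack of calls says little. With the contrasts taken as independent, 4 and 12 genes (0.0271% and 0.0814%) were called, none of them a member. JAG1 had the largest such difference of the 7 genes for contrasts 2 and 3 (log2 1.92 ± 0.55, adjusted p = 0.362). By the test with the largest standard error it was log2 1.92 ± 0.77 (adjusted p = 1.00).

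HES1, a direct Notch target that encodes a basic helix-loop-helix repressor, gave the only members' calls above 1 in GRO-seq. In the authors' deposited table it was 3.03-fold in contrast 2 (log2 1.60 ± 0.46, adjusted p = 0.0197) and 3.44-fold in contrast 3 (log2 1.78 ± 0.46, adjusted p = 0.00863), at percentiles 98.0 and 97.5 of all genes. The 95% intervals of these folds were 1.57 to 5.85 and 1.78 to 6.65. In GRO-seq contrasts 1, 4 and 5 it was 1.63-fold, 0.996-fold and 1.59-fold and was not called.

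The mRNA of HES1 did not follow in size. In RNA-seq it was 1.00-fold, 0.941-fold, 1.16-fold, 0.831-fold and 1.06-fold in contrasts 1 to 5 in the authors' deposited table. It was called higher in contrast 3 (log2 0.21 ± 0.05, adjusted p = 9.72e-04) and lower in contrast 4 (log2 -0.27 ± 0.05, adjusted p = 8.14e-04), and was not called in contrast 2 (log2 -0.09 ± 0.05, adjusted p = 0.240). The assays differed for HES1 by log2 1.69 ± 0.46 in contrast 2 (adjusted p = 0.0166) and by 1.57 ± 0.46 in contrast 3 (adjusted p = 0.0155), so that nascent transcription stood 3.22-fold and 2.98-fold above the mRNA on the scale of fold changes. In contrasts 1, 4 and 5 the difference was 0.70 ± 0.48, 0.26 ± 0.47 and 0.59 ± 0.46 and was not called (adjusted p = 0.432, 0.874 and 0.629).

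**Figure D2:**
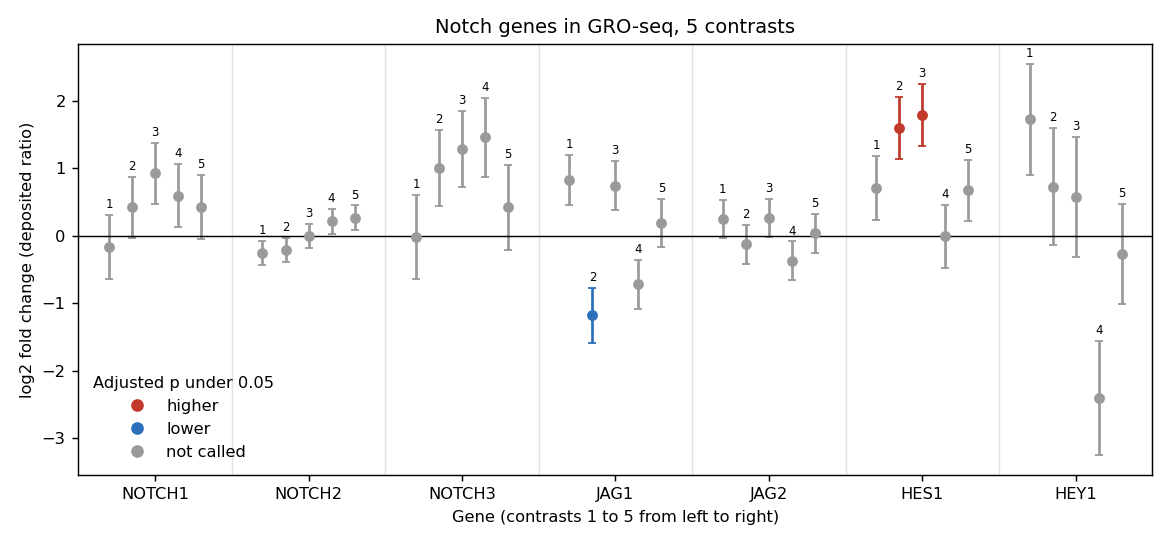
GRO-seq log2 fold change (vertical axis) of the 7 Notch genes in contrasts 1 to 5, numbered above the points; bars are the implied standard error and colour gives the call at an adjusted p under 0.05. The 3 called points are JAG1 in contrast 2 (-1.18) and HES1 in contrasts 2 and 3 (1.60 and 1.78).

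HEY1, the other target gene and also a basic helix-loop-helix repressor, was lower in mRNA in 3 contrasts. In RNA-seq contrasts 1 to 5 it was 1.27-fold, 0.785-fold, 0.657-fold, 0.675-fold and 0.564-fold in the authors' deposited table. The calls were those of contrast 3 (log2 -0.61 ± 0.19, adjusted p = 0.0130), contrast 4 (log2 -0.57 ± 0.18, adjusted p = 0.0413) and contrast 5 (log2 -0.83 ± 0.19, adjusted p = 0.00164). In contrast 3 the mRNAs of the target genes therefore moved in opposite directions, with HES1 higher and HEY1 lower. In GRO-seq contrast 3 both were above 1, HES1 at 3.44-fold and HEY1 at 1.49-fold, the latter not called (adjusted p = 0.716). HEY1 had the largest RNA-seq decrease of the 7 genes in contrasts 3, 4 and 5, and also the largest implied standard errors in contrasts 1 to 5, between 0.17 and 0.19. In GRO-seq its values reached from 0.189-fold in contrast 4 to 3.31-fold in contrast 1, and neither was called (adjusted p = 0.130 and 0.329). Its implied standard error there, 0.74 to 0.89, was at percentile 96.7 of the GRO-seq values.

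Counted by contrast, RNA-seq contrast 1 had 4 of the 7 genes lower (NOTCH1, NOTCH3, JAG1 and JAG2) and none higher, where 20.7% of all genes were called lower and 23.2% higher. In contrast 2, JAG1 and JAG2 were lower and none of the 7 was higher, against 9.63% lower and 9.64% higher. In contrast 3, NOTCH1, NOTCH3, JAG1 and HEY1 were lower and NOTCH2 and HES1 higher, against 17.8% lower and 18.3% higher. In contrast 4, JAG1, JAG2, HES1 and HEY1 were lower and none was higher, against 4.90% lower and 3.87% higher, and in contrast 5 NOTCH1, JAG1 and HEY1 were lower and none was higher, against 10.9% lower and 10.5% higher. The median log2 fold change of the 7 genes was -0.09, -0.09, -0.13, -0.27 and -0.10 in the RNA-seq contrasts 1 to 5, while that of all genes lay between -0.01 and 0.01. Except for NOTCH3 in contrast 1 and HEY1 in contrasts 3 and 5, every call in RNA-seq was of a change under 1.5-fold.

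In GRO-seq contrast 2, HES1 was higher and JAG1 lower, against 7.63% of all genes higher and 7.83% lower. Contrast 3 had HES1 higher and none of the 7 lower, against 9.23% and 8.92%. None of the 7 was called in contrasts 1, 4 and 5, where 0.292%, 1.58% and 0.115% of all genes were called higher and 0.495%, 1.53% and 0.122% lower. At an unadjusted threshold of 0.05, 2, 2 and 0 members passed in those contrasts, against 2162, 2294 and 1702 of all 14745 genes. The median log2 fold change of the 7 genes in GRO-seq was 0.25, 0.42, 0.74, -0.01 and 0.26 in contrasts 1 to 5, against a range of -0.02 to 0.01 for all genes.

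The difference between the assays was tested for each gene over 13772 genes with 1 row in both tables. NOTCH3 was called in contrast 1, where 2.79% of genes had the GRO-seq change above that in RNA-seq and 3.27% below. HES1 was called in contrast 2, against 6.18% above and 6.96% below, and HES1 and NOTCH3 in contrast 3, against 11.1% and 11.4%. No member was called in contrast 4, against 1.23% and 1.34%, or in contrast 5, against 0.566% and 0.399%. All 4 member calls were of GRO-seq above RNA-seq. Of all genes called in both assays, 46.3%, 16.4%, 66.3%, 12.7% and 61.1% lay in opposite directions in contrasts 1 to 5. Whether a number means the same comparison in both assays was not tested. The GRO-seq change was the higher one for 6, 5, 6, 4 and 7 of the 7 genes in contrasts 1 to 5, whereas over all genes that share ran from 47.6% to 52.4%.

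**Figure D3:**
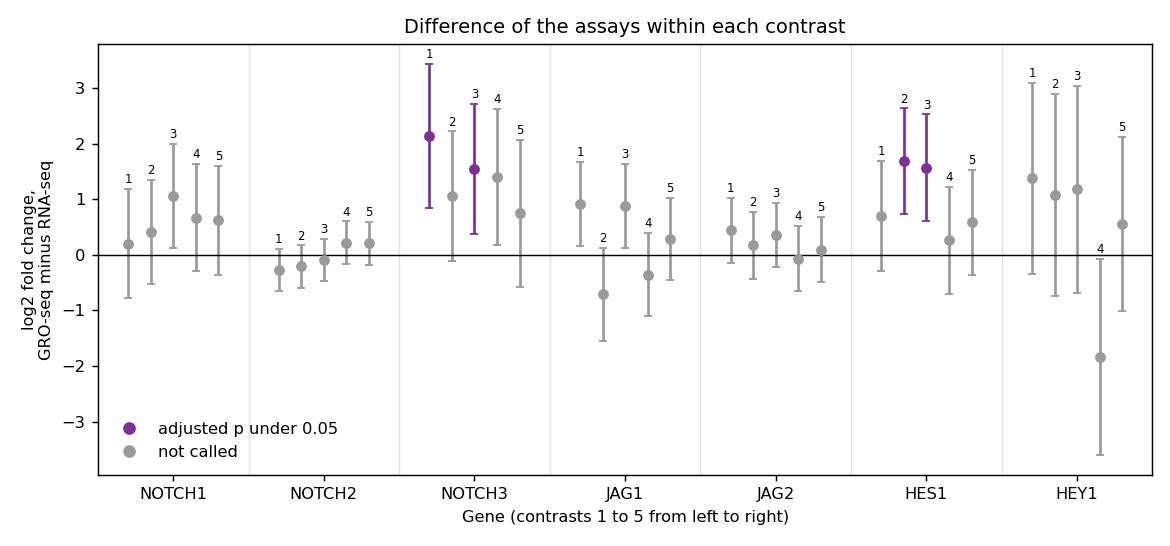
GRO-seq minus RNA-seq log2 fold change (vertical axis) for the 7 Notch genes in contrasts 1 to 5, numbered above the points, with 95% intervals; purple marks an adjusted p under 0.05. The 4 called points are NOTCH3 in contrasts 1 and 3 (2.15 and 1.55) and HES1 in contrasts 2 and 3 (1.69 and 1.57).

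Other genes also moved where the members did. MTAP and CDKN2A, genes of a region known to be deleted in MCF10A cells and picked after their values were seen, were 31.1-fold and 301-fold in RNA-seq contrast 1 in the authors' deposited table. Of 8 markers of fibroblasts, leukocytes and endothelium, 6 had a row in RNA-seq, and 3 were called higher and 2 lower in contrast 1. They included the collagen gene COL3A1 (379-fold), the macrophage gene CD163 (302-fold) and the fibroblast gene DCN (0.125-fold), while PTPRC and CDH5 had no row. COL3A1, CD163 and CDKN2A shared their folds in RNA-seq contrasts 2 (1.00-fold) and 3 (0.966-fold), with implied standard errors of 0.60 to 0.69. In contrasts 4 and 5 the same 3 genes had smaller errors, of 0.08 to 0.12. Their sizes in contrast 1 may thus rest on a floor of few reads in part of the groups, which was not tested. COL1A1, also called higher in contrast 1, was 12.1-fold there with an implied standard error of 0.09. In GRO-seq contrast 1 COL3A1, CD163 and CDKN2A were 9.86-fold, 3.42-fold and 12.3-fold, with implied standard errors of 1.00 to 1.57. None of these 3 values was called (adjusted p = 0.329, 0.424 and 0.269). All 8 epithelial markers had rows, of which KRT8, KRT18, EPCAM and ITGB4 were higher and KRT5, KRT14, TP63 and CDH1 lower in contrast 1. In RNA-seq contrasts 2 to 5, 3, 7, 2 and 5 of the 8 epithelial markers were called lower and none higher. Of the 6 other markers, 2, 2, 0 and 0 were higher and 0, 0, 1 and 4 lower in the same contrasts. In GRO-seq no marker of either list was called lower, and at most 2 of the 8 epithelial and 1 of the 7 other markers with a row were called higher in a contrast. The part of these changes in the values of the 7 genes was not tested. In bulk RNA, fewer cells of a type and less RNA per cell cannot be told apart.

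Other genes of the pathway were taken from a list of 64, of which 59 had a row in RNA-seq and 58 in GRO-seq. In RNA-seq, 14, 8, 9, 6 and 9 were called higher and 13, 11, 15, 6 and 12 lower in contrasts 1 to 5. Over all genes 23.2%, 9.64%, 18.3%, 3.87% and 10.5% were called higher and 20.7%, 9.63%, 17.8%, 4.90% and 10.9% lower. In GRO-seq, 0, 6, 9, 1 and 0 were called higher and 0, 4, 8, 1 and 0 lower, against 0.292%, 7.63%, 9.23%, 1.58% and 0.115% of all genes higher and 0.495%, 7.83%, 8.92%, 1.53% and 0.122% lower. At an unadjusted threshold of 0.05, 10 of the 58 passed in GRO-seq contrast 1 and 4 in contrast 5, against 2162 and 1702 of all 14745 genes. The medians of the list lay between -0.04 and 0.02 on the log2 scale in RNA-seq and between -0.04 and 0.10 in GRO-seq.

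The genes named next were picked for their calls. NEURL1 and NEURL1B, ubiquitin ligase genes of the Neuralized family that acts on ligands in the fruit fly, went apart in RNA-seq contrast 1, at 4.27-fold and 0.491-fold in the authors' deposited table (adjusted p = 7.09e-13 and 8.34e-16). NEURL1B was also 0.539-fold in contrast 3 and 0.730-fold in contrast 5 in RNA-seq, and 2.79-fold in GRO-seq contrast 4 (adjusted p = 0.0269). LFNG, a glycosyltransferase of the Fringe family that alters how receptors respond to ligands, was 0.443-fold, 0.532-fold and 0.817-fold in RNA-seq contrasts 1, 2 and 3 and 1.37-fold in contrast 5, each called. DTX4, a Deltex ubiquitin ligase gene, was lower in each RNA-seq contrast, at 0.748-fold to 0.884-fold. ITCH, whose ubiquitin ligase marks Notch for degradation, was higher in each, at 1.11-fold to 1.33-fold.

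Subunits of γ-secretase, the protease that releases the intracellular domain, gave APH1B at 2.12-fold and 1.97-fold and NCSTN at 1.62-fold and 1.58-fold in GRO-seq contrasts 2 and 3 in the authors' deposited table, all called higher, whereas PSEN2 was 0.564-fold in contrast 3. ADAM10 and ADAM17, proteases that cut the receptor before γ-secretase does, were 1.54-fold and 1.39-fold in GRO-seq contrast 3 (adjusted p = 0.0228 and 0.0467). In RNA-seq none of APH1B, NCSTN, ADAM10 and ADAM17 was called in any contrast.

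The Mastermind coactivator gene MAML3 was 0.698-fold, 0.458-fold and 0.536-fold in RNA-seq contrasts 1, 3 and 5, and MAML2 0.905-fold, 0.868-fold, 0.802-fold and 0.859-fold in contrasts 1, 2, 3 and 5, in the authors' deposited table. HES7, a HES family repressor gene, was lower in RNA-seq contrasts 2 to 5, at 0.781-fold to 0.879-fold. TLE3, a Groucho corepressor gene, was 1.25-fold in RNA-seq contrast 1 and 0.852-fold to 0.913-fold in contrasts 2 to 5, and 0.356-fold in GRO-seq contrast 2 (adjusted p = 5.61e-04). TLE4, of the same family, was 2.12-fold and 2.74-fold in GRO-seq contrasts 2 and 3 and was not called in RNA-seq.

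**Figure D4:**
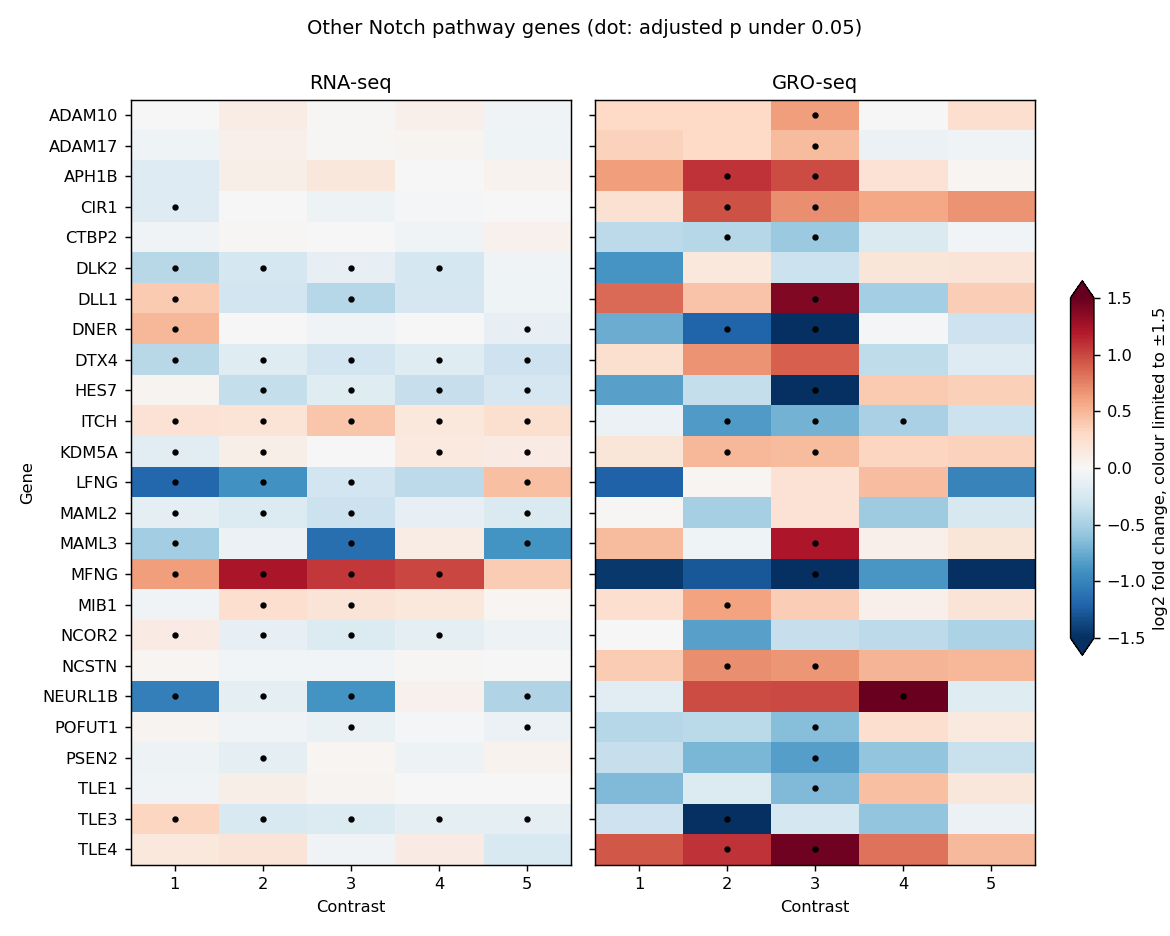
Log2 fold changes (colour, limited to ±1.5) of 25 other Notch pathway genes called in at least 4 RNA-seq contrasts or in any GRO-seq contrast, with contrasts 1 to 5 across and genes down, RNA-seq left and GRO-seq right; dots mark an adjusted p under 0.05. MFNG and ITCH are above 0 on the left and below 0 on the right in contrasts 1 to 5, with GRO-seq calls in contrast 3 for MFNG and in contrasts 2, 3 and 4 for ITCH.

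The genes with the most similar RNA-seq patterns were found by the Euclidean distance of the 5 log2 fold changes among 15500 genes. LY6D, an epithelial surface protein gene, was nearest to NOTCH3 (distance 0.16, against a median of 2.25 over all genes), followed by EHF, an epithelial transcription factor gene (0.35), and ITGBL1 (0.45). LY6D and EHF were 0.223-fold and 0.233-fold in contrast 1 in the authors' deposited table, next to 0.222-fold for NOTCH3. JAG1 was nearest to DNAJB5, HILPDA and SYBU (0.15 to 0.17, median 0.76), and JAG2 to LAD1, TIGD5 and PWWP2B (0.09 to 0.11, median 0.64). HES1 was nearest to TYMP, IFIT5 and SPATA6L (0.11 to 0.15, median 0.52), and HEY1 to PCDH1, GBP5 and ADAM11 (0.32 to 0.38, median 1.34). The neighbours of NOTCH1 were INPP5D, PIGM and P3H2 (0.06 to 0.08, median 0.61), and those of NOTCH2, whose changes were close to 0 like those of many genes, were ITGB1BP1, GSPT1 and TTC1 (0.02 to 0.03, median 0.38). These distances describe 5 contrasts that share libraries and carry no test.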

How the data were processed

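The series holds 48 libraries, 24 for each assay, in 6 groups of 4. One label text gives the short exposure another length than the titles do, and the titles were followed. The labels do not say whether replicates were separate cultures, so the p-values may measure technical spread. Per the submitters' processing notes, GRO-seq reads went through BWA 0.7.16a, featureCounts and limma and RNA-seq reads through STAR and DESeq, on GRCh38. Settings, filters and whether counting used strand were not given in the sources used here. Per the file headers, each gene and contrast has 2 values deposited by the authors, a linear fold change and its unadjusted p-value. Depth and values per library are unknown.

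The 7 genes, the pathway list and the tests were chosen with earlier results of these data known. The genes named are the 7, the pathway genes called in at least 4 RNA-seq contrasts or in any GRO-seq contrast, the called one with the largest change per contrast, the 3 nearest patterns of each member, SATB1 and CYP1A1, and the cell type markers of a list; MTAP and CDKN2A were added after their values were seen; the text gives part of the pathway genes so chosen, and 1 of them is not reported here. P-values were adjusted (Benjamini-Hochberg) over all rows with a symbol, leaving out 156 RNA-seq rows without one (0.994%). The implied standard error divides the log2 fold change by the quantile of Student's distribution that gives the deposited p-value. That distribution was assumed for both assays. Which one gave the RNA-seq p-values is not stated, and with another the RNA-seq errors and intervals would differ. The degrees of freedom, 25 for GRO-seq and 31 for RNA-seq, are those that made the 5 errors of a gene vary least. Assays were compared with the root of the summed squares of both errors and Satterthwaite degrees of freedom, contrasts with the sum of both errors, each adjusted over all genes on 1 row. Steps were tested on data simulated from the implied errors themselves. Such data cannot test the assumed distribution, the degrees of freedom or those errors. Of the symbols, 96.2% and 96.3% matched RefSeq GRCh38.p14. The software was scipy 1.17.1, pandas 2.3.3, numpy 2.4.6 and matplotlib 3.10.9 under Python 3.11.15.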

Additional observations from a re-analysis of the deposited data

How the results depend on the processing

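No paired analysis was possible because the tables hold comparisons and no values per library, and for the same reason no replicate was left out. Adjusting over all rows or at 0.1 kept every count of members within 1.5 times. At an adjusted p under 0.01, members called in GRO-seq contrast 2 went from 2 to 0, the assay differences from 1, 1 and 2 to 0, 0 and 0 in contrasts 1 to 3, and the other pathway genes from 10, 17 and 2 to 3, 5 and 0 in GRO-seq contrasts 2, 3 and 4 and from 12 to 6 in RNA-seq contrast 4. The Benjamini-Yekutieli adjustment, which allows any dependence, left 0 members in GRO-seq contrasts 2 and 3, HES1 included (adjusted p = 0.200 and 0.0879). With a minimum of 1.5-fold, RNA-seq contrasts 1 to 5 had 1, 0, 1, 0 and 1 members and 5, 2, 5, 1 and 2 pathway genes, and GRO-seq contrast 4 had 1. The shares of all genes at these stricter settings are not given here. Whether members and pathway genes dropped out more or less often than all genes therefore cannot be told. With halved degrees of freedom the assay differences called were 0 in contrast 1 and 1 in contrast 3, NOTCH3 being lost in both (adjusted p = 0.0851 and 0.0756), and with centred values 1 in contrast 3. With contrasts taken as independent, 3 members differed in RNA-seq between contrasts 2 and 3 and 3 between contrasts 4 and 5, in place of 1 and 1. Centring, which was applied to the differences between assays and is the one alternative that shifts a value, reversed none of them for the 7 genes. The cause of these moves was not tested beyond the alternatives' own construction.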

Other observations

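Some pathway genes that are not among the 7 were called in both assays in opposite directions, the genes being picked for that after their values were seen. In contrast 3 these were 4 of the 6 pathway genes called in both (MFNG, MAML3, DLL1 and ITCH), where over all genes 829 of 1251 called in both assays, or 66.3%, lay in opposite directions. The share among the pathway genes is thus near that of all genes. In contrasts 2 and 4 the shares over all genes were 16.4% of 646 and 12.7% of 110, and in contrasts 1 and 5 they were 46.3% of 82 and 61.1% of 18.

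MFNG, a Fringe glycosyltransferase gene, was 0.132-fold in GRO-seq and 2.09-fold in RNA-seq in contrast 3 in the authors' deposited table, and the assays differed by log2 -3.98 ± 0.79 (adjusted p = 5.36e-04). MAML3, a Mastermind coactivator gene, was 2.33-fold and 0.458-fold there (difference 2.35 ± 0.41, adjusted p = 1.26e-04), and DLL1, a Delta ligand gene, 2.61-fold and 0.746-fold (difference 1.81 ± 0.47, adjusted p = 0.00596). ITCH was the one pathway gene with opposite calls in contrasts 2, 3 and 4, at 0.557-fold, 0.611-fold and 0.711-fold in GRO-seq and 1.15-fold, 1.33-fold and 1.11-fold in RNA-seq. For ITCH the assays differed in contrasts 2 to 5 (adjusted p between 1.85e-06 and 0.0379).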
